A study of Homo sapiens with 4 samples.

Results

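The proteasome genes described here are the 48 gene symbols that consist of PSM, a letter from A to G and a number, out of 24424 symbols counted in BEAS-2B cells. BEAS-2B is an established, immortalized line of human bronchial epithelial cells, labelled wild type, and RNA was sequenced from 4 libraries, 1 for each condition. Control cells received no treatment. LPS cells received lipopolysaccharide (LPS), the outer-membrane glycolipid of gram-negative bacteria, for 2 hr. WT PDZ+LPS cells received a cell-penetrating peptide based on the first PDZ domain of the tight junction protein ZO-1 for 24 hr and then LPS for 2 hr. The mut PDZ+LPS cells were treated in the same way with a mutant peptide, in which a pair of neighbouring glycines was replaced by alanines. The doses in this experiment are not given in the sources used here. Since every condition was 1 library of 1 cell line, no difference has a replicate check, no p-value is given, and what the treatment and what the single library contributed cannot be told apart.

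The proteasome degrades proteins tagged with ubiquitin. Its core particle is a barrel of alpha subunits (PSMA), which form the gated outer rings, and beta subunits (PSMB), which form the inner rings and hold the proteolytic sites. The regulatory particle that caps the barrel has ATPases (PSMC), which unfold the substrate, and non-ATPase subunits (PSMD), which bind and remove ubiquitin and hold the complex together. In immune cells, and in epithelial cells exposed to interferon-gamma or TNF, PSMB8, PSMB9 and PSMB10 take the places of the catalytic subunits PSMB5, PSMB6 and PSMB7. This immunoproteasome, often with the activator PA28 made of PSME1 and PSME2, yields peptides suited to presentation on MHC class I. The transcription factor IRF1 is a known activator of immunoproteasome genes, and NF-kB acts on some of them.

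By role, the 48 genes were 7 core alpha subunits, 7 constitutive core beta subunits, 3 immunoproteasome catalytic subunits, 6 ATPases, 11 non-ATPase subunits, 7 assembly chaperones (PSMG1 to PSMG4, PSMD5, PSMD9 and PSMD10), 4 activators (PSME1 to PSME4), the inhibitor PSMF1, and PSMA8 and PSMB11. The alpha, constitutive beta, ATPase and non-ATPase groups make up the 31 constitutive subunits, and PSMB8, PSMB9, PSMB10, PSME1 and PSME2 are the 5 immunoproteasome members. All 4 libraries held counts for 46 of the 48 genes. PSMA8, the alpha subunit of the testis, and PSMB11, the catalytic subunit of the thymus cortex, had 0 counts in all 4, which allows up to 0.119 to 0.152 CPM, the counts scaled to a common library total.

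The RefSeq table (GRCh38.p14) held a promoter for 42 of the 48 genes. The 250 bases before the start of PSMB10, PSME2 and PSMB9 are shown because PSMB9 is a known target of IRF1, and PSMB10 and PSME2 held an IRF-like motif. Those of PSMB8 and PSME1, which held no IRF-like motif, are not shown. Capitals mark matches to the motifs IRF-like (GAAA, any 2 bases, GAAA), NF-kB-like (GGG, any 5 bases, CC), STAT-like (TTCNNNGAA) and antioxidant-response-like (TGACNNNGC), searched on both strands, so that overlapping matches run together. PSMB10 lies on the minus strand at chr16:67936851-67937100, PSME2 on the minus strand at chr14:24146611-24146860 and PSMB9 on the plus strand at chr6:32853942-32854191, each read 5′ to 3′ toward the gene.
PSMB10: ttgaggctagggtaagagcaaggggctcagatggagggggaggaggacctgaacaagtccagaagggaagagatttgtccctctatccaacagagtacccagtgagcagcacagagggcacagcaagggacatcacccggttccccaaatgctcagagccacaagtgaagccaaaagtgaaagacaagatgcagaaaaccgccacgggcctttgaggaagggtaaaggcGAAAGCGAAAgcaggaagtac
PSME2: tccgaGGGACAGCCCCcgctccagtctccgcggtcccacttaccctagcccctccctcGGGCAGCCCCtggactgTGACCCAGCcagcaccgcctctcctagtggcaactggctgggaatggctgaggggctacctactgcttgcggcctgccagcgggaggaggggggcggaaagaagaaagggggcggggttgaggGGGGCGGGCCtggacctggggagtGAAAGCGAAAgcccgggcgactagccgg
PSMB9: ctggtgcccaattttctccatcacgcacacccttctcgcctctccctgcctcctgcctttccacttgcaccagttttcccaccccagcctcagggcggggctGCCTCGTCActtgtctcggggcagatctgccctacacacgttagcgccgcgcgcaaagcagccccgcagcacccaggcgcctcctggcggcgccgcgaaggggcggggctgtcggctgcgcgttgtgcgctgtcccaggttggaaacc

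PSMB10 and PSME2 held the same 10 letters, GAAAGCGAAA, close to their starts, at bases -21 to -12 in PSMB10 and -28 to -19 in PSME2, counted back from the start. The IRF-like motif was present in 5 of the 42 members with a promoter (11.9%), against 3.71% of all 27305 genes. A gene was counted if any of its listed starts had a match within 250 bases. The 5 were PSMA4, PSMB4, PSMB10, PSME2 and PSMG4. Their log2 fold changes in LPS against Control were, in this order, 0.02, 0.03, 0.40, -0.13 and 0.13. Whether IRF1 acted on them was not tested. The antioxidant-response-like motif was found in 13 of 42 (31%, against 13.2%), the STAT-like motif in 7 (16.7%, against 8.09%) and the NF-kB-like motif in 30 (71.4%, against 57.8%). PSMB9 held only the antioxidant-response-like match within these 250 bases. Its start lies 488 bases from that of TAP1, the peptide transporter gene, which is read in the opposite direction. These are matches of letters, not measured binding sites.

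The libraries held 19682929 (mut PDZ+LPS) to 25155647 (LPS) counts. Of the 8 epithelial markers, the keratins KRT7 (38725 to 51663 normalized counts), KRT8, KRT18, KRT17 and KRT5 had at least 1015 in every library, whereas CDH1 had 362 to 620.0, KRT19 87.9 to 188 and EPCAM 34.8 to 49.5. The mesenchymal genes VIM (20794 to 24975) and FN1 were also high, and CDH2 was low (68.1 to 99.2). Of the leukocyte markers, PTPRC was at 0 and CD3E, CD79A, LST1, LYZ and ITGAM had at most 11.3 normalized counts, whereas CD14 (366 to 523) and CD68 (305 to 362) were detected. LPS-induced genes such as CXCL8 (1307 in Control and 34700 to 47644 in the 3 LPS-treated libraries) and CCL20 (44.4 and 11428 to 18981) separated Control from the libraries labelled LPS. The mut PDZ+LPS library stood apart by transcript length: against LPS, the log2 fold change went with the length of the longest protein-coding transcript, with a Spearman's rho of -0.60 across 12114 genes, which are not independent replicates, and 0.075 in WT PDZ+LPS/LPS. The main differences of mut PDZ+LPS are therefore also given after the trend over length and GC content was removed.

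The proteasome genes were expressed at similar, high levels in all 4 libraries. Together they held 0.690% of the counts of Control (95% exact binomial interval, 0.687 to 0.694%), 0.636% of LPS (0.633 to 0.639%), 0.632% of WT PDZ+LPS (0.629 to 0.635%) and 0.697% of mut PDZ+LPS (0.694 to 0.701%). These intervals, and all others here, cover counting error only, because each condition was 1 library. Without molecular identifiers several reads can come from 1 molecule, which the intervals do not account for. In bulk RNA, fewer cells of a kind and less RNA per cell cannot be told apart. The 5 immunoproteasome members made up 6.84%, 7.02%, 6.97% and 8.59% of the members' counts in the same order, so that mut PDZ+LPS was the highest of the 4. As a share of all counts the constitutive subunits were also highest there, at 0.562% against 0.505 to 0.556% in the other libraries.

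Levels of different genes were compared as normalized counts per kb of transcript. The most abundant member on this scale was PSMA7, an alpha subunit, at 8061 in Control and 7563 in LPS, with 7543 under WT PDZ+LPS and 9409 under mut PDZ+LPS. The medians of the roles in LPS were 3615 for the alpha subunits, 2424 for the constitutive beta subunits, 1962 for the ATPases, 1801 for the non-ATPase subunits and 880 for the assembly chaperones. PA28 was as abundant as the core, with PSME1 at 3710.1 and PSME2 at 3802 in LPS. The immunoproteasome catalytic subunits were below their constitutive counterparts in every library, in the order PSMB8 (1720 per kb in LPS), PSMB9 (1271) and PSMB10 (611). The nuclear activator PSME3 (1741) and the inhibitor PSMF1 (924) were intermediate, and the lowest detected members were PSMG4, a chaperone of alpha-ring assembly (268), and PSME4, the large single-chain activator PA200 (437).

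**Figure D1:**
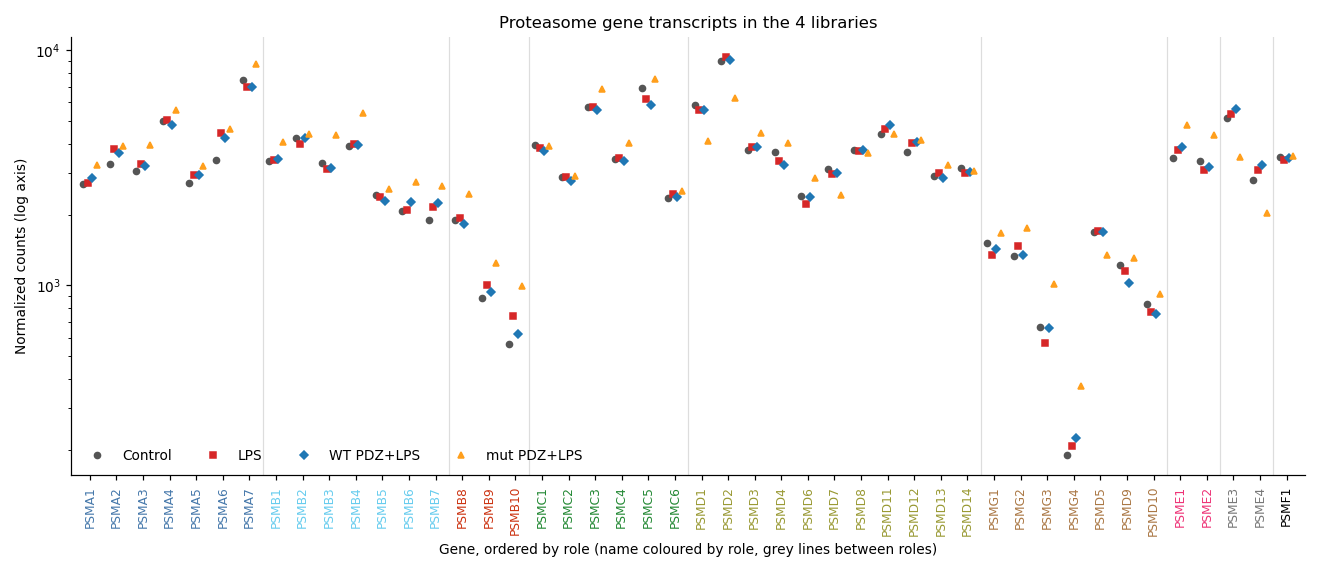
Normalized counts (log axis, not divided by length) of the 46 detected proteasome genes, grouped by role, with 1 point for each gene in each of the 4 libraries. For most genes the points lie close together, and in LPS they run from 208 (PSMG4) to 9346 (PSMD2).

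The first comparison, LPS/Control, asks what 2 hr of LPS did to these genes. PSMB10, the immunoproteasome subunit with trypsin-like activity, and PSMA6, an alpha subunit, were the highest members, by 1.32-fold and 1.31-fold. No member differed by 2-fold in either direction, whereas 3.46% of the 13277 genes with at least 16 normalized counts in one of the libraries were at least 2-fold higher and 1.41% lower. At a smaller difference, where the higher library exceeded the lower by at least 25%, 2 of the 46 detected members (4.35%) were higher, against 13% of all genes, and 0 were lower, against 12.1%. Most members are abundant, which narrows the counting error. Of the 42 that averaged 1000 or more normalized counts, 1 (PSMA6) was at least 25% higher, against 11.6% of the 5326 genes at that level, and 0 were lower, against 1.54%.

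PSMB10 had 565 normalized counts in Control and 744 in LPS, with 624 under WT PDZ+LPS and 999 under mut PDZ+LPS. Its log2 fold change in LPS/Control was 0.40 (counting interval, 0.25 to 0.55), and Control was the lowest of the 4 libraries. PSMB9, whose constitutive counterpart PSMB6 has the caspase-like activity, had 882, 999.9, 938 and 1247 in the same order and a log2 fold change of 0.18 (0.055 to 0.31). PSMB8, which replaces the chymotrypsin-like subunit PSMB5, had 1893, 1933, 1826 and 2448, and its difference in LPS/Control (0.03) lay within counting error (-0.057 to 0.12). The PA28 subunits went opposite ways: PSME1 had 3479.5, 3782, 3866 and 4789 normalized counts, with 0.12 in LPS/Control (0.057 to 0.18), and PSME2 had 3383, 3097, 3173 and 4379, with -0.13 (-0.20 to -0.060). The median of the 5 immunoproteasome members was 0.12, against 0.01 for the 31 constitutive subunits and -0.0010 for all 13072 genes that averaged 16 or more normalized counts. Scaling by total counts lowers the median of all genes to -0.13 and turns the immunoproteasome median to -0.01 and the constitutive one to -0.12. Any scaling shifts every gene by about the same amount, so the gap of 0.11 between these medians could not change with it.

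The constitutive counterparts of the catalytic subunits had log2 fold changes of -0.04 (PSMB5, 2434 in Control and 2373 in LPS), 0.0069 (PSMB6, 2078 and 2088) and 0.19 (PSMB7, 1899.9 and 2161). Only the interval of PSMB7 (0.10 to 0.27) did not hold 0. PSMA6 had 3418 normalized counts in Control and 4467 in LPS, with 4223 under WT PDZ+LPS and 4640.1 under mut PDZ+LPS. PSMA2, another alpha subunit, had 3298, 3816, 3639 and 3910.4 in this order. Both were lowest in Control, with log2 fold changes in LPS/Control of 0.39 (0.33 to 0.45) and 0.21 (0.15 to 0.28). GENCODE 29 lists 4 pseudogenes of PSMA6, and how reads shared with such copies were counted is not given in the sources used here. Pseudogenes are listed for 12 of the 48 members, with 13 for the ATPase PSMC1 alone.

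The other roles moved little after LPS. Medians were 0.10 for the alpha subunits, 0.0069 for the constitutive beta subunits, -0.0093 for the ATPases, -0.02 for the non-ATPase subunits and -0.08 for the assembly chaperones. The lowest members were PSMG3 at -0.22 (-0.37 to -0.060), its fellow assembly chaperone PSMG1 at -0.16 (-0.27 to -0.063) and the ATPase PSMC5 at -0.15 (-0.20 to -0.10). Over the 46 members, the interval lay above 0 for 14 (30.4%, against 26% of all genes), below 0 for 12 (26.1%, against 21.2%) and held 0 for 20 (43.5%, against 52.7%), and the SD across members was 0.13. These shares of all genes were not matched for level, and abundant genes, as most members are, have narrower intervals. No scaling turned the sign of PSMB10, PSMA6 or PSMG3, but under total-count scaling PSMA6 and PSMB10, at 0.25 and 0.27, were no longer 25% higher.

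**Figure D2:**
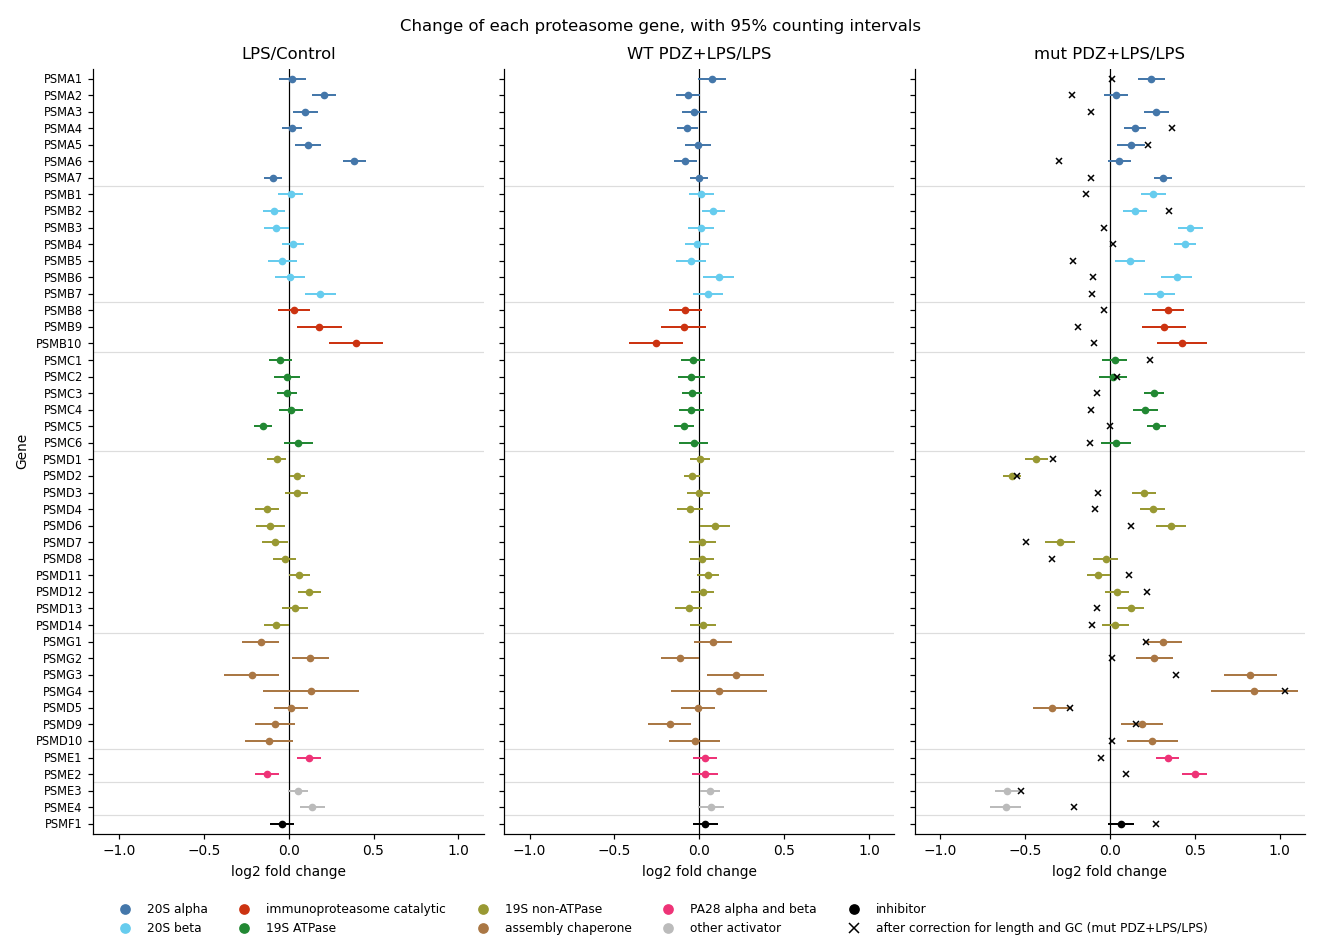
Log2 fold changes of the 46 detected proteasome genes, with 1 panel for LPS/Control, 1 for WT PDZ+LPS/LPS 1 for mut PDZ+LPS/LPS, 95% exact binomial counting intervals as bars and, in the last panel, the corrected values as crosses. Values span -0.22 to 0.40 in LPS/Control and -0.25 to 0.21 in WT PDZ+LPS/LPS, and -0.61 to 0.85 in mut PDZ+LPS/LPS.

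Partners of the immunoproteasome were 14 genes for its transcription and for loading its peptides onto MHC class I. They were named after their values were seen, so setting them beside all genes is not a test of the list. Their median in LPS/Control was 0.10, and IRF1, TAPBP, IRF2 and TAP1 differed more than any member. At least 2-fold higher in LPS/Control were 2 of 14, against 3.46% of all genes, and 0 were lower, against 1.41%. IRF1 had 1069 normalized counts in Control and 13155 in LPS, a 12.3-fold difference (log2, 3.62; 3.54 to 3.71), with 9895 under WT PDZ+LPS and 13572 under mut PDZ+LPS. TAPBP, which bridges the peptide transporter and MHC class I, had 2152, 4769, 4032 and 4910.3 and was 2.22-fold higher in LPS. Also at least 25% higher were IRF2 (1.68-fold) and TAP1 (1.44-fold), where 13% of all genes were higher and 12.1% lower. The other 10, including the interferon-signalling genes STAT2 (-0.12) and IRF9 (-0.29), the MHC class I activator NLRC5 (-0.14) and the MHC light chain B2M (0.13), did not pass 25%. TAP1 and PSMB9, whose starts lie 488 bases apart, differed from Control by 0.53 (0.45 to 0.61) and 0.18 on the log2 scale.

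Of 23 other genes for proteasome assembly, substrate delivery and proteasome gene transcription, 1 was at least 25% higher after LPS and 0 were lower. The shares of all genes were 13% and 12.1%. This list, too, was named after its values were seen. The higher gene was NFE2L2, the transcription factor of the antioxidant response, with 3198 normalized counts in Control and 6109 in LPS (1.91-fold). NFE2L1, the factor that restores proteasome transcription when the proteasome is inhibited, differed by 0.07. The core assembly factor POMP also differed by 0.07. The ubiquitin gene UBB was at 0.23.

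The next comparison, WT PDZ+LPS/LPS, sets the wild-type peptide followed by LPS against LPS alone. No library received a peptide without LPS, so an effect of the peptide itself and one on the LPS response cannot be told apart. No member was 2-fold higher (0.635% of 13236 genes) or lower (0.733%), and none differed by even 25%, where 5.36% of all genes were higher and 5.83% lower. Among the 5326 genes that averaged 1000 or more, 0.0939% and 0.376% passed 25%. The members ran from -0.25 (PSMB10) to 0.21 (PSMG3), with a median of -0.0054 and an SD of 0.080. The median of the constitutive subunits was -0.0078 with an SD of 0.053, that of the immunoproteasome members -0.08, and that of all genes 0.0075.

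PSMB10 was the lowest member, with 744 normalized counts in LPS and 624 in WT PDZ+LPS (log2 fold change, -0.25; -0.41 to -0.10). The other immunoproteasome members had intervals that held 0, with PSMB8 at -0.08, PSMB9 at -0.09, PSME1 at 0.03 and PSME2 at 0.035. Next lowest were PSMD9, a chaperone of the regulatory particle, at -0.17 (-0.30 to -0.053) and PSMG2, a chaperone of the alpha ring, at -0.11 (-0.22 to -0.0080). All 6 ATPases were below 0 (-0.09 to -0.03), but only the interval of PSMC5 did not hold 0 (-0.14 to -0.040). The highest members were PSMG3, at 571 in LPS and 662 in WT PDZ+LPS (0.21; 0.053 to 0.38), followed by PSMG4 (0.11; -0.16 to 0.39) and the catalytic subunit PSMB6 (0.11; 0.029 to 0.20). Over the 46 members the interval lay above 0 for 5 (10.9%, against 12.1% of all genes), below 0 for 8 (17.4%, against 10.1%) and held 0 for 33 (71.7%, against 77.9%). As before, the shares of all genes were not matched for level. Among the partners, IRF1 was 1.33-fold lower (log2, -0.41; -0.45 to -0.37), the only one of 14 past 25%, with IRF2 at -0.27 and TAPBP at -0.24. None of the 23 assembly, delivery and transcription genes passed 25%. Over all genes 5.36% were that much higher and 5.83% lower, so few were to be expected in lists of this size.

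In mut PDZ+LPS/LPS, the same comparison for the mutant peptide, the members spread more widely, with shorter transcripts tending to be higher. No member was 2-fold different, where 2.05% of 13378 genes were higher and 1.9% lower. At 25%, 10 of 46 (21.7%) were higher against 21.6% of all genes, and 5 (10.9%) were lower against 23.9%. The 10 were the beta subunits PSMB3, PSMB4 and PSMB6, the immunoproteasome members PSMB8, PSMB10, PSME1 and PSME2, the non-ATPase PSMD6 and the chaperones PSMG3 and PSMG4. The 5 were the non-ATPase scaffolds PSMD1 and PSMD2, the chaperone PSMD5 and the activators PSME3 and PSME4. At 1.5-fold, PSMG3 and PSMG4 were higher (7.89% of all genes) and PSME3 and PSME4 lower (9.8%). The median was 0.15 for the constitutive subunits and 0.34 for the immunoproteasome members, against -0.02 for all genes, and after the correction for length and GC content these medians were -0.09, -0.05 and -0.04. The corrected values of 4 members (8.70%) passed 25% upward, against 11.6% of all genes, and those of 5 (10.9%) downward, against 15.1%.

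All 5 immunoproteasome members were higher in mut PDZ+LPS than in LPS by more than counting error, and were at their highest there of the 4 libraries. The log2 fold changes were 0.34 for PSMB8 (0.25 to 0.43), 0.32 for PSMB9 (0.19 to 0.44), 0.42 for PSMB10 (0.28 to 0.57), 0.34 for PSME1 (0.28 to 0.40) and 0.50 for PSME2 (0.43 to 0.57). After the correction they were -0.03, -0.19, -0.09, -0.05 and 0.09. The signs of PSMB8, PSMB9, PSMB10 and PSME1 were thus turned. The same was so of the constitutive counterparts PSMB5 (2373 in LPS and 2573 in mut PDZ+LPS; 0.12, and -0.22 corrected), PSMB6 (2088 and 2744; 0.39 and -0.10) and PSMB7 (2161 and 2646; 0.29 and -0.10).

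PSMG3 and PSMG4, which work as a pair in alpha-ring assembly, were the highest members. PSMG3 had 663 normalized counts in Control and 571 in LPS, with 662 under WT PDZ+LPS and 1014 under mut PDZ+LPS, a log2 fold change of 0.83 (0.68 to 0.98), or 0.39 after the correction. PSMG4 had 189.7, 208, 225 and 375, a log2 fold change of 0.85 (0.60 to 1.1). Its corrected value was 1.03 with the longest transcript (4603 nt) and 0.45 with the median length of its basic transcripts (775 nt), and the length of the transcript used in these cells was not tested. The other pair of alpha-ring chaperones, PSMG1 and PSMG2, had 0.31 and 0.26, and 0.21 and 0.011 after the correction.

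The lowest members had longer transcripts than most of the group. PSME4 had 2812, 3099.5, 3247 and 2025 normalized counts in the same order, with mut PDZ+LPS the lowest library and a log2 fold change of -0.61 (-0.70 to -0.53). With 7099 nt it is the longest member, and its corrected value was -0.21. PSME3 had 5165, 5367, 5611 and 3520.3, also -0.61 (-0.67 to -0.54), and PSMD2, which binds ubiquitin-carrying shuttle proteins, had 9014, 9346, 9075 and 6267, at -0.58 (-0.62 to -0.53). After the correction PSME3 was at -0.53 and PSMD2 at -0.55, and the non-ATPase PSMD7 (2972 in LPS and 2425 in mut PDZ+LPS; -0.29) was at -0.49. PSMD1, which like PSMD2 is a large scaffold of the regulatory particle, went from -0.43 to -0.34. The lowest 5 corrected values were those of PSMD2, PSME3, PSMD7, PSMD8 (-0.34, and -0.03 as measured) and PSMD1.

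By role, the medians in mut PDZ+LPS/LPS were 0.15 for the alpha subunits, 0.29 for the constitutive beta subunits, 0.12 for the ATPases, 0.03 for the non-ATPase subunits and 0.26 for the assembly chaperones. All 7 alpha subunits, all 7 beta subunits and all 6 ATPases were above 0. The non-ATPase subunits were the most spread of the constitutive roles, from -0.58 (PSMD2) to 0.36 (PSMD6). After the correction the medians of the alpha, beta, ATPase and non-ATPase roles lay between -0.11 and -0.04, and that of the assembly chaperones was 0.15.

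Proteasome transcripts are short. The median length was 1586 nt over the 46 detected members and 3481 nt over all genes. Across the members, Spearman's rho between the length and the difference of mut PDZ+LPS from LPS was -0.61, as a description of 1 pair of libraries. It was 0.15 in WT PDZ+LPS/LPS and 0.031 in LPS/Control. The 18 members under 1500 nt were all higher in mut PDZ+LPS, with a median of 0.33 against 0.40 for the 1230 genes of that length. The 14 members of 1500 to 3000 nt had a median of 0.20, against 0.14 for 3806 genes, and the 14 of at least 3000 nt had 0.02, against -0.22 for 7078 genes. Removing the trend turned rho over the members to 0.30, so that the correction with the longest transcript went past 0 for these genes. With the median length of the basic transcripts, which was chosen after the data were examined, the corrected medians were 0.0021 for the constitutive subunits and 0.02 for the immunoproteasome members.

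**Figure D3:**
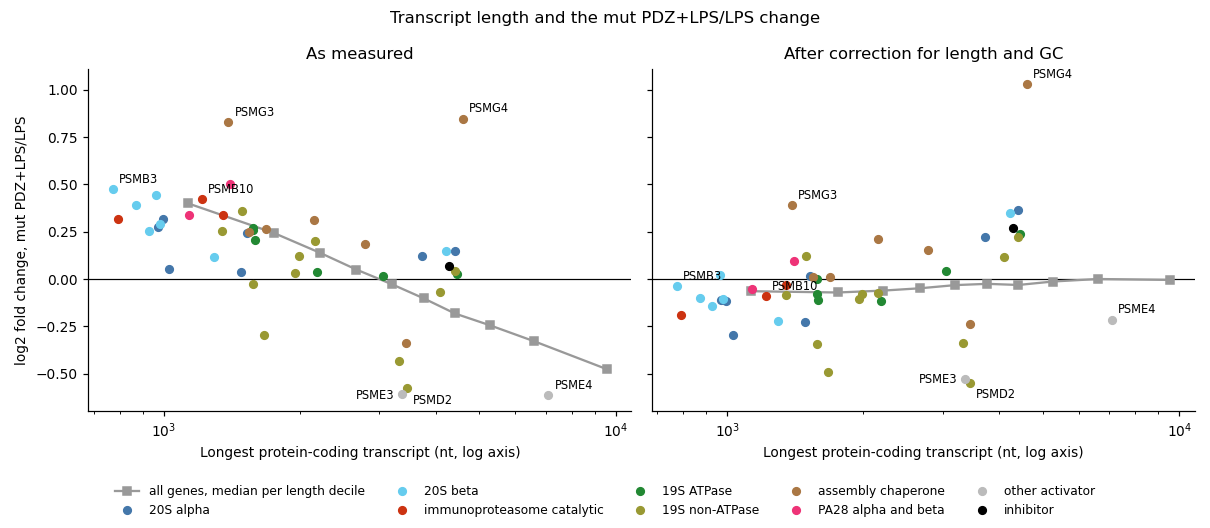
Log2 fold change against LPS in mut PDZ+LPS of the 46 detected proteasome genes against the longest protein-coding transcript in nt (log axis), as measured and after the correction, with the medians of all genes in 10 length deciles as a line. As measured, the members go down with length as the line does, with PSMG4 (0.85) far above it and PSMD2 (-0.58) and PSME3 (-0.61) below it.

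The peptides were set side by side in mut PDZ+LPS/WT PDZ+LPS, as 1 comparison of 1 library with another at the same times. Since these comparisons share libraries, the values again carried the length trend. No member was 2-fold different (2.12% of 13372 genes were higher and 2.14% lower). At 25%, 11 of 46 were higher (23.9%, against 22.5% of all genes) and 5 lower (10.9%, against 24.9%). PSMG4 (0.73; 0.48 to 0.99), PSMB10 (0.68; 0.53 to 0.83) and PSMG3 (0.61; 0.47 to 0.76) were at least 1.5-fold higher (8.4% of all genes), and PSME3 (-0.67; -0.74 to -0.61) and PSME4 (-0.68; -0.77 to -0.60) at least 1.5-fold lower (10.7%). After the correction these 5 were at 0.91, 0.14, 0.16, -0.59 and -0.24. The median was 0.42 for the immunoproteasome members and 0.17 for the constitutive subunits, and 0.02 and -0.07 after the correction, which left 2 members (4.35%) 25% higher, against 12.6% of all genes, and 5 lower, against 14.9%. Whether the differences beyond counting error belong to the glycine-to-alanine change of the peptide could not be tested with 1 library of each. For 6 members (13.0%, against 7.98% of all genes) the intervals of WT PDZ+LPS/LPS and of the mutant counterpart lay on opposite sides of 0. Abundant genes have narrower intervals, and that share of all genes was not matched for level.

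The catalytic pairs were compared as ratios per kb of the immunoproteasome subunit to the constitutive subunit whose place it takes. PSMB8/PSMB5 was 0.698 for Control (95% interval, 0.659 to 0.738), 0.731 for LPS (0.689 to 0.775), 0.713 for WT PDZ+LPS (0.670 to 0.759) and 0.853 for mut PDZ+LPS (0.803 to 0.907). The intervals of the first 3 libraries overlapped one another, and mut PDZ+LPS was the highest. PSMB9/PSMB6 was 0.465, 0.524, 0.454 and 0.497, and PSMB10/PSMB7 was 0.239, 0.277, 0.224 and 0.304. Both were higher in LPS than in Control, by 0.17 (0.024 to 0.32) and 0.21 (0.040 to 0.38) on the log2 scale, and lower in WT PDZ+LPS than in LPS, by -0.21 (-0.36 to -0.053) and -0.30 (-0.48 to -0.13). The corresponding changes of PSMB8/PSMB5, 0.07 (-0.050 to 0.18) and -0.03 (-0.16 to 0.088), were within counting error. These ratios do not depend on the scaling of the libraries. In mut PDZ+LPS/LPS the ratio of PSMB8 to PSMB5 differed by 0.22 (0.10 to 0.34), whereas those of PSMB9 to PSMB6 (-0.08; -0.22 to 0.073) and PSMB10 to PSMB7 (0.13; -0.031 to 0.30) lay within counting error. After the correction these were 0.19, -0.09 and 0.013. Between the peptides, mut PDZ+LPS against WT PDZ+LPS, PSMB10/PSMB7 differed by 0.44 (0.27 to 0.61; 0.32 corrected), PSMB8/PSMB5 by 0.26 (0.13 to 0.38; 0.22 corrected), and PSMB9/PSMB6, within counting error, by 0.13 (-0.022 to 0.28; 0.12 corrected).

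**Figure D4:**
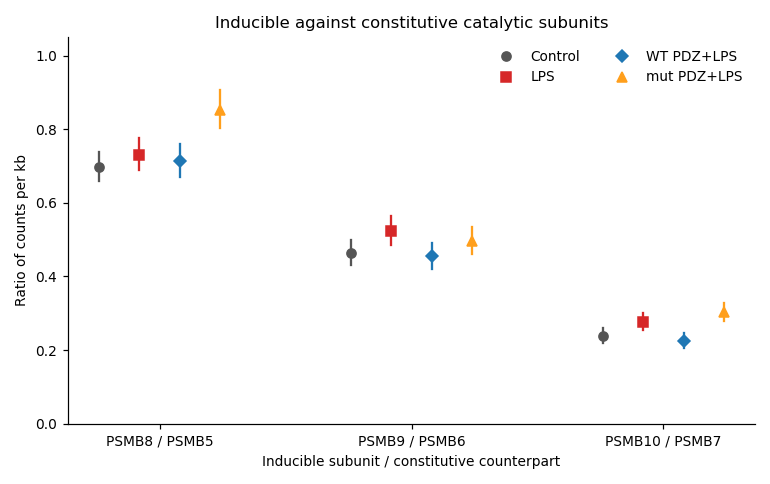
Ratio of normalized counts per kb of each immunoproteasome catalytic subunit to its constitutive counterpart in the 4 libraries, with 95% counting intervals. All 12 ratios are below 1, from 0.224 for PSMB10/PSMB7 in WT PDZ+LPS to 0.853 for PSMB8/PSMB5 in mut PDZ+LPS.

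Among the genes that work with the proteasome, 6 of the 23 assembly, delivery and transcription genes were at least 25% higher in mut PDZ+LPS than in LPS (26.1%, against 21.6% of all genes) and 6 lower (26.1%, against 23.9%). After the correction, which covered 22 of them, 1 was higher (TXNL1, a proteasome-bound thioredoxin, at 0.53) and 3 were lower (NFE2L2 at -0.43, UBQLN1 at -0.38 and DDI2). The corrected shares of all genes were 11.6% and 15.1%. As measured, the higher ones included the ubiquitin receptor ADRM1, the regulatory-particle subunit SHFM1, the nuclear-import factor AKIRIN2, the ubiquitin gene UBB and PSMC3IP, a recombination cofactor that binds the ATPase PSMC3. The lower ones were the ubiquitin ligase UBE3C, the proteasome adaptor KIAA0368, the shuttles UBQLN1 and UBQLN2, NFE2L2 and DDI2. Corrected with the median basic length, PSMC3IP (0.36) also passed 25% upward and UBE3C (-0.53) downward. DDI2, the protease that activates NFE2L1, was the only one past 2-fold, with 447 normalized counts in Control and 396 in LPS, with 416 under WT PDZ+LPS and 89.3 under mut PDZ+LPS (log2 fold change, -2.14; -2.52 to -1.79, and -1.60 after the correction). The longest transcript of DDI2 has 10625 nt. The gene RSC1A1 lies inside the DDI2 locus, and whether reads were divided between them was not tested. NFE2L1 itself differed by -0.27, or -0.12 after the correction. Of the 14 immunoproteasome partners, the lectin chaperone CALR was at least 25% higher and the peptide-trimming ERAP1 was among those lower, at 0.15 and -0.23 after the correction. IRF1 (0.05, and 0.11 corrected), TAPBP (0.04 and 0.05) and TAP1 (-0.08 and -0.19) did not pass 25%. After the correction 1 of the 14 was at least 25% higher, the peptide-loading oxidoreductase PDIA3 (0.37), and 0 were lower, against 11.6% and 15.1% of all genes. These counts depended on the length used. With the median basic length, PDIA3 (0.49), NLRC5 (0.37) and TAP2 (0.35) passed 25% upward and TAPBP (-0.39) downward.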

How the data were processed

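Counts per gene symbol were deposited by the authors, 1 file for each library. The submitters' processing notes name TopHat and hg19, and the counting tool and its use of strand are not given in the sources used here. Their library kit marks strand.

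Counts were divided by geometric size factors (DESeq2 1.42.0, R 4.3.3) and 1 was added before log2. A gene passed a fold of 2 or 1.5, or a difference of 25%, with at least 16 normalized counts in either library. Medians of all genes used genes that averaged 16 or more. Intervals are 95% exact binomial (Clopper-Pearson), or from the normal approximation to the log odds ratio for changes of a catalytic ratio. Corrected values lack the lowess trend (span 0.3) over log2 length, then over GC content, of each gene's longest coding transcript in GENCODE 29 (12114 of 13072 genes matched). Levels per kb use the median length of basic transcripts.

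The members and lists were chosen with earlier results of these data known. Every member is covered; given in full are the 5 immunoproteasome members, PSMB5 to PSMB7 and the 3 highest and 3 lowest members of each comparison. Alternatives were other scalings (TMM with edgeR 4.0.16, total counts, upper quartile), a pseudocount of 5, other minimum counts and folds, and the correction. The steps were checked on simulated data. Software was Python 3.11.15 with scipy 1.17.1, pandas 2.3.3 and statsmodels 0.14.6 (lowess), and plots were drawn in matplotlib 3.10.9. Genes of the other lists were named after their values were seen, and values of some of them are not reported here.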

Additional observations from a re-analysis of the deposited data

Results flagged for a closer look

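For 6 of 46 members (13.0%, against 7.98% of all genes) the difference from LPS had opposite signs under the wild-type and the mutant peptide, each beyond its counting interval, and this contrast was not tested because there is 1 library of each. The share of all genes was not matched for level, and most members are abundant, which narrows their intervals. The log2 difference of mut PDZ+LPS from WT PDZ+LPS, followed by its value corrected for length and GC content, was 0.68 for PSMB10 (0.14), 0.38 for the alpha-ring chaperone PSMG2 (0.11), 0.36 for the regulatory-particle chaperone PSMD9 (0.32), 0.36 for the ATPase PSMC5 (0.076), 0.22 for the alpha subunit PSMA4 (0.45) and -0.67 for the activator PSME3 (-0.59). After the correction PSMB10 was below LPS under both peptides (-0.24 with the wild-type and -0.091 with the mutant peptide), and PSMC5 was at 0.00045 under the mutant peptide. The longest transcript of PSMA4 has 4411 nt and its median basic transcript 944 nt, and with the latter its corrected value was -0.040.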

How the results depend on the processing

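Each condition was 1 library, so no replicate could be left out. No paired analysis was possible because the groups compared share fewer than 2 replicate numbers. TMM scaling and a pseudocount of 5 changed no count of members by over 1.5 times and turned no sign of a called value. Total-count scaling in LPS/Control lowered the constitutive median to -0.12, the immunoproteasome median to -0.011 and PSME1 to -0.011, and left 0 members at least 25% higher and 1 lower. It also lowered the median of all genes, from -0.0010 to -0.13. Upper-quartile scaling raised the constitutive median to 0.21 for mut PDZ+LPS against LPS, and the members at least 25% higher to 18 against LPS and 19 against WT PDZ+LPS. The median of all genes rose with it, from -0.023 to 0.041 against LPS and from -0.020 to 0.045 against WT PDZ+LPS. Shares of all genes past 25% under total-count and upper-quartile scaling are not reported here, so these counts do not single out the members. A mean of at least 1000 left 1 such member in LPS/Control. With a fold of 1.5 in place of 2, mut PDZ+LPS had 2 members higher than LPS and 2 lower, and 3 higher than WT PDZ+LPS and 2 lower.

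The correction for length and GC content with the longest transcript moved the constitutive medians of mut PDZ+LPS to -0.085 against LPS and -0.071 against WT PDZ+LPS, the immunoproteasome medians to -0.052 and 0.024, and the immunoproteasome minus constitutive median to 0.033 against LPS. It left 4 and 2 members at least 25% higher, and 1 (PSMG4) 2-fold higher against LPS. With the median basic transcript length, added after the data were examined, the constitutive medians were 0.0021 and 0.015, the immunoproteasome medians 0.024 and 0.052, their differences from the constitutive ones 0.022 and 0.037, and 3 and 1 members were 25% higher.

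Signs turned under the longest-transcript correction against LPS for PSMB5 (-0.22), PSMB6 (-0.097), PSMB7 (-0.10), PSMB8 (-0.033), PSMB9 (-0.19), PSMB10 (-0.091) and PSME1 (-0.052), and against WT PDZ+LPS for PSMB5 (-0.19), PSMB6 (-0.24), PSMB7 (-0.17), PSMB9 (-0.12) and PSME1 (-0.11). With the basic length they turned against LPS for PSMB5 (-0.18) and PSMB9 (-0.10), and against WT PDZ+LPS for PSMB5 (-0.15), PSMB6 (-0.13), PSMB7 (-0.040), PSMB9 (-0.028) and PSME1 (-0.0096). Both corrections remove the trend over length by construction. The cause of that trend was not tested.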
